A study of Rattus norvegicus with 16 samples.

Results

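The regions described here are stretches of 1000 bp of the rat genome that are rich in CpG dinucleotides and carry methylation on roughly every other read. They were chosen by their values. A site, meaning 1 cytosine of a CpG on 1 strand, was counted if at least 10 reads covered it in each of 10 libraries, and a window needed at least 3 counted sites on chromosomes 1 to 20. A window was CpG-dense if at least 17 distinct CpGs of it were listed in any of the 10 libraries, and its level, the percentage of methylated reads among all reads of its counted sites, had to average at least 40% and less than 60% over the 4 high-fat libraries at postnatal day 7. This rule kept 2249 of 22053 CpG-dense windows (10.2%) and of 86065 windows in all (2.61%). The level in the high-fat libraries is therefore a description, and tests below use control libraries only.

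The tissue was microdissected amygdala of female Long-Evans rats, and methylation was read by reduced representation bisulfite sequencing, which cuts at CCGG and so samples CpG-rich DNA. Dams ate control diet or, in the high-fat groups, a high-fat diet from 4 weeks before mating until the end of lactation. The daughters, which were not fed that diet themselves, were taken on postnatal day 7 (P7) or, after weaning to control food, on postnatal day 90 (P90). The groups used were 4 control P7, 4 high-fat P7 and 2 of 4 control P90 libraries. The other 6 of the 16 libraries, control P90 replicates 3 and 4 and all 4 high-fat P90 libraries, carry a lane name and had no part in the choice of windows. The amygdala was cut at different bregma levels at the 2 ages, so the dissected level and age cannot be told apart. The labels do not tie libraries to litters or animals, so p-values measure only the spread between these libraries. In bulk tissue, a changed share of a cell type and changed methylation within cells cannot be told apart. No annotation of the build was used, so whether a window lies in an exon, an intron or between genes is not given except for the promoters placed below.

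In mammalian DNA most CpGs are methylated, while CpG-rich promoters, called CpG islands, are usually free of it. An intermediate level can come from cells that differ, from alleles that differ, as at imprinted genes where 1 parental copy is methylated, or from a window that spans the border between a methylated and an unmethylated stretch. Reads summed per window do not separate these.

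Promoter sequences are given as examples from the few windows that overlapped a placed promoter. RefSeq promoters (build GRCr8, 250 bases before to 50 after the start) were placed on the Rnor_6.0 positions of the files by the spacing of their CpGs, as described under the processing. Of the 2249 windows 156 (6.94%) overlapped 175 placed promoters, and in 4 of these windows a promoter held at least 5 counted sites: those of Chad (chondroadherin, a cartilage matrix protein), Ddost (a subunit of the oligosaccharyltransferase that glycosylates new proteins), Gp1bb (a chain of the platelet receptor for von Willebrand factor) and Tpt1 (translationally controlled tumor protein). The 250 bases before the start are printed for the first 3, because most of their counted promoter sites lie there, and capitals mark the CpGs with a counted site. The coordinates in GRCr8, all plus strand, are chr10:80008795-80009044 for Chad, chr5:155805362-155805611 for Ddost and chr11:95882311-95882560 for Gp1bb.
Chad: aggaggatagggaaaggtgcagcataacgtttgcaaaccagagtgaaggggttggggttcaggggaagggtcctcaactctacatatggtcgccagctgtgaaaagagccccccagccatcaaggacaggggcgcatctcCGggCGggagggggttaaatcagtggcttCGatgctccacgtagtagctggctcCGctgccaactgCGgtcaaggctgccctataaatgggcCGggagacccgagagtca
Ddost: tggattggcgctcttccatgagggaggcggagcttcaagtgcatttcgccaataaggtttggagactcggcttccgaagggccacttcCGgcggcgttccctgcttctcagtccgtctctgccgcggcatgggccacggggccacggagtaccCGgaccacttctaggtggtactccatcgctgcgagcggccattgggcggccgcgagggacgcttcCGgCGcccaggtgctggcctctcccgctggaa
Gp1bb: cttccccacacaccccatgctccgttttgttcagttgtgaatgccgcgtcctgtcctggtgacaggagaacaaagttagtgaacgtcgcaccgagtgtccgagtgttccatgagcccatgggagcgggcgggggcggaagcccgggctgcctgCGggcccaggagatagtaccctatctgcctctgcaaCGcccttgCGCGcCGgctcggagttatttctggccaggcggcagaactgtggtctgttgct

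The capitals in the Chad promoter carry very different levels. Its sites 110 and 106 bases before the start stood at 49.5% ± 12.1 and 46.3% ± 4.88 (SD, n = 4 control P7), and the pair 81 and 80 bases before the start at 9.01% ± 4.12 and 6.20% ± 3.03. The sites between 56 and 17 bases before the start ranged from 12.7% to 19.9%. The window as a whole, chr10:82292001-82293000 in Rnor_6.0, had 30 counted sites, 6 under 20%, 16 in between and 8 at or above 80%, and a level of 57.3% ± 3.81 in control P7. Over every listed site of the placed promoter the level was 20.04% ± 3.07, far below that of the window. Sites without a methylated read are not listed, so levels over listed sites are upper limits.

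In the Ddost promoter, in chr5:156668001-156669000, the 5 counted sites ranged from 16.5% ± 4.96 at 29 bases before the start to 67.6% ± 6.09 only 3 bases upstream of it (SD, n = 4 control P7). This window stayed between 40% and 60% in all 10 libraries. In the Gp1bb promoter, in chr11:86520001-86521000, the 5 marked sites ran from 40.6% ± 3.38 to 65.1% ± 11.7 at P7. Averaged over the 2 control P90 libraries, the same sites stood between 18.0% and 56.3%. The window of 6 counted sites read 59.03%, 56.4%, 56.3% and 47.4% at P7 and 44.7% and 42.6% at P90, a gap that did not pass the test (adjusted p = 0.154, logistic fit moderated with limma). In Tpt1 the counted sites lie just after the start, from 9 to 46 bases behind it for those within the placed sequence, so no base before the start would be marked.

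The median over the 2249 windows was 52.2%, 51.7%, 46.7% and 49.8% in high-fat P7 replicates 1 to 4, which had set the rule. It was 52.4%, 47.3%, 50.2% and 50.2% in control P7 replicates 1 to 4, and 52.8% and 53.4% in control P90 replicates 1 and 2. High-fat replicate 3 and control P7 replicate 2 were the lowest of their groups by median, and both also had the lowest median of their group over all CpG-dense windows. The mean of the 4 control P7 libraries ran from 29.97% to 73.6%. It lay within 40% to 60% in 1842 windows, below in 203 and above in 204. In 935 windows (41.6%) each of the 4 control P7 libraries was within these limits, and in 336 (14.9%) each of the 10 libraries was.

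**Figure D1:**
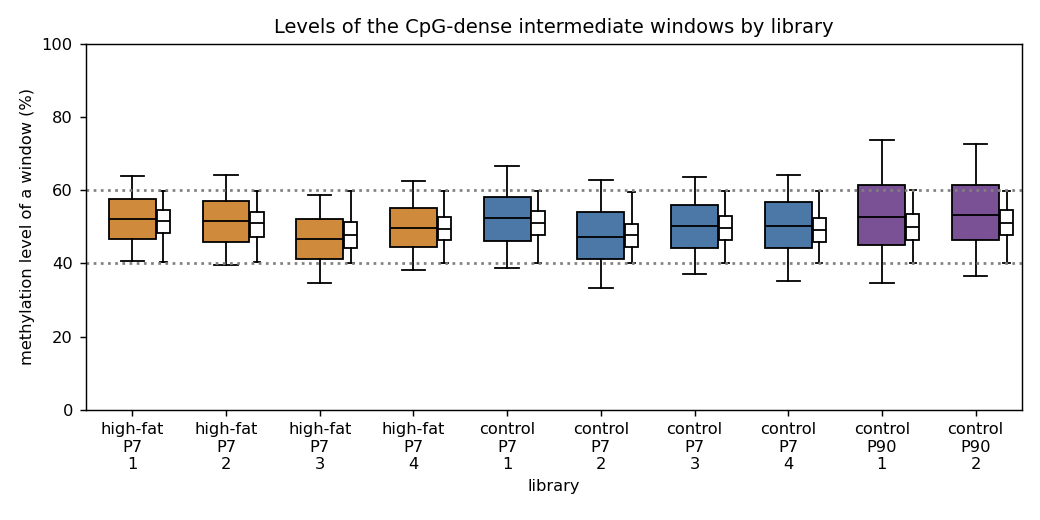
Level of the 2249 windows in each library (filled boxes: median and quartiles, whiskers from the 5th to the 95th percentile) and of the 336 windows within 40% to 60% in all 10 libraries (narrow white boxes, whiskers over the whole range). Dotted lines mark 40% and 60%; the boxes of the P90 libraries reach higher than those of the P7 libraries although the medians differ little.

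Reads were summed over sites, so a read that covers several sites is counted at each of them and the number of separate reads is lower. Counted this way, the 10 libraries held 22087054 to 63677193 reads over 1796735 to 2188584 listed sites. A window had 30 to 40358 reads per library, with a median of 237 in control P7. The SD between the 4 control P7 libraries had a median of 4.49 points. Counting alone would give 3.26 points at these depths if every site were read independently. It exceeded the counting error in 1610 windows (71.6%) and passed 10 points in 114. An SD of 4 libraries itself varies by chance, so part of the 1610 would exceed it without added spread. That part was not measured. The counting error is a lower limit, since reads are not tagged by molecule and sites on the same read were taken as independent. With a larger counting error fewer than 1610 windows would exceed it.

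The limits of the rule fell within a continuous range of values. Just inside 40%, chr17:12274001-12275000 read 45.6%, 42.3%, 33.3% and 38.9% in the high-fat libraries, and chr8:49738001-49739000 read 39.7%, 40.7%, 42.7% and 37.1%. Just outside it, chr12:37923001-37924000 read 43.7%, 40.2%, 38.8% and 37.3%, and chr10:90551001-90552000 read 36.0%, 40.7%, 47.5% and 35.7%. The single libraries of a window therefore straddled the limit on either side of it. At the upper limit chr3:62089001-62090000 and chr6:109562001-109563000 averaged just under 60%, with single libraries from 52.1% to 67.8%. Next to them on the far side, chr9:11067001-11068000 and chr1:199263001-199264000 averaged just over it, with libraries from 52.3% to 66.4%. For density, 236 windows had exactly 17 CpGs and 243 with an intermediate level were left out at 16. Examples inside are chr1:7882001-7883000, at 59.8% in the high-fat mean, and chr1:8039001-8040000, at 41.0%. Examples outside are chr1:36760001-36761000, at 54.8%, and chr1:40853001-40854000, at 48.3%.

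Most counted sites of these windows were themselves intermediate. Of 18911 counted sites, 81.4% averaged 20% to 80% in control P7, 6.81% were under 20% and 11.8% were at 80% or more, and 35.3% lay between 40% and 60%. The share at 20% to 80% was 64.6% in CpG-dense windows at 20% to 40% and 62.2% in those at 60% to 80%. In CpG-sparse windows of the same 40% to 60% level, with fewer than 17 CpGs, it was 90.4%. A band of 20% to 80% is centred on the level that chose the windows, which favours a high share here. The median SD between the sites of a window was 19.6 points here. It was 15.9 in CpG-dense windows at 20% to 40%, 13.3 at 60% to 80% and 14.3 in the CpG-sparse windows. Window by window, 864 (38.4%) had every counted site at 20% to 80%. A further 609 (27.1%) mixed at least 1 site under 20% with at least 1 at 80% or more. This mixed share was 25.3% in CpG-dense windows at 20% to 40%, 5.99% at 60% to 80% and 6.09% in the CpG-sparse windows. A level in the middle of the scale leaves the most room for spread between sites and for mixing low with high. The chosen level therefore favours high values of both, and only the CpG-sparse windows share it. At 3076 CpGs counted on both strands the strands differed by a median of 6.24 points, and by more than 30 points in 8.19%.

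The evenest windows by control P7 site means are chr15:57891001-57892000, chr4:89150001-89151000 and chr20:7220001-7221000. They were the only 3 of 742 windows with at least 10 counted sites whose sites differed by an SD under 5 points. The first, at the start of Tpt1, had 16 sites between 52.2% and 58.5% in the control P7 mean. Its level was 59.5%, 53.1%, 52.8% and 55.1% in control P7, 62.5%, 56.6%, 44.4% and 56.9% in high-fat P7, and 63.2% and 59.3% in control P90. Its sites were less even in the other groups. For example, those 18 and 19 bases behind the start averaged 58.4% and 54.1% in control P7. They averaged 52.2% and 58.1% in high-fat P7, and 55.5% and 66.1% in control P90. The second had 20 sites between 32.7% and 44.0%, with 37.9%, 41.8%, 39.9% and 38.9% in control P7 and 43.7% and 45.6% in control P90. Neither passed the age test (adjusted p = 0.217 and 0.249, limma-moderated logistic fit). The third overlaps the placed promoter of Rps10, a ribosomal protein gene, and had 10 sites between 35.0% and 46.6%. None of them is in that promoter, which stood at 3.75% ± 1.95 over its listed sites (SD, n = 4 control P7). The sites of Tpt1 lay within 73 bp and those of the Rps10 window within 64 bp, so the same reads cover several of them and they are not separate measurements.

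The most uneven windows were chr8:23001001-23002000, chr12:36841001-36842000, chr1:84213001-84214000 and chr10:15154001-15155000. In the first, 6 sites on the left were at 7.66% to 15% and 5 of the 6 on the right above 80%, up to 95.3%, and its level of 42.6%, 39.5%, 50.2% and 41.8% in control P7 lies far from that of every site. The site SD was 38.5 to 41.1 points in these 4 windows, which spanned 702 to 982 bp between the outermost counted sites. Spread and span went together over the 742 windows with at least 10 sites (Pearson r = 0.44, Spearman rho = 0.42, across windows of the same libraries, as a description). In 889 windows whose counted sites spanned at most 200 bp, 54.4% had all sites intermediate and 15.4% mixed low with high. In 519 windows spanning more than 500 bp these shares were 14.8% and 46.1%. A step of at least 30 points between the mean of the sites left and right of the median position was present in 356 of 1590 windows with at least 5 sites (22.4%). The share was 13.5% of CpG-dense windows at 20% to 40%, 11.2% of those at 60% to 80% and 14.7% of CpG-sparse windows at 40% to 60%. A level in the middle of the scale leaves the most room for a step as well.

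**Figure D2:**
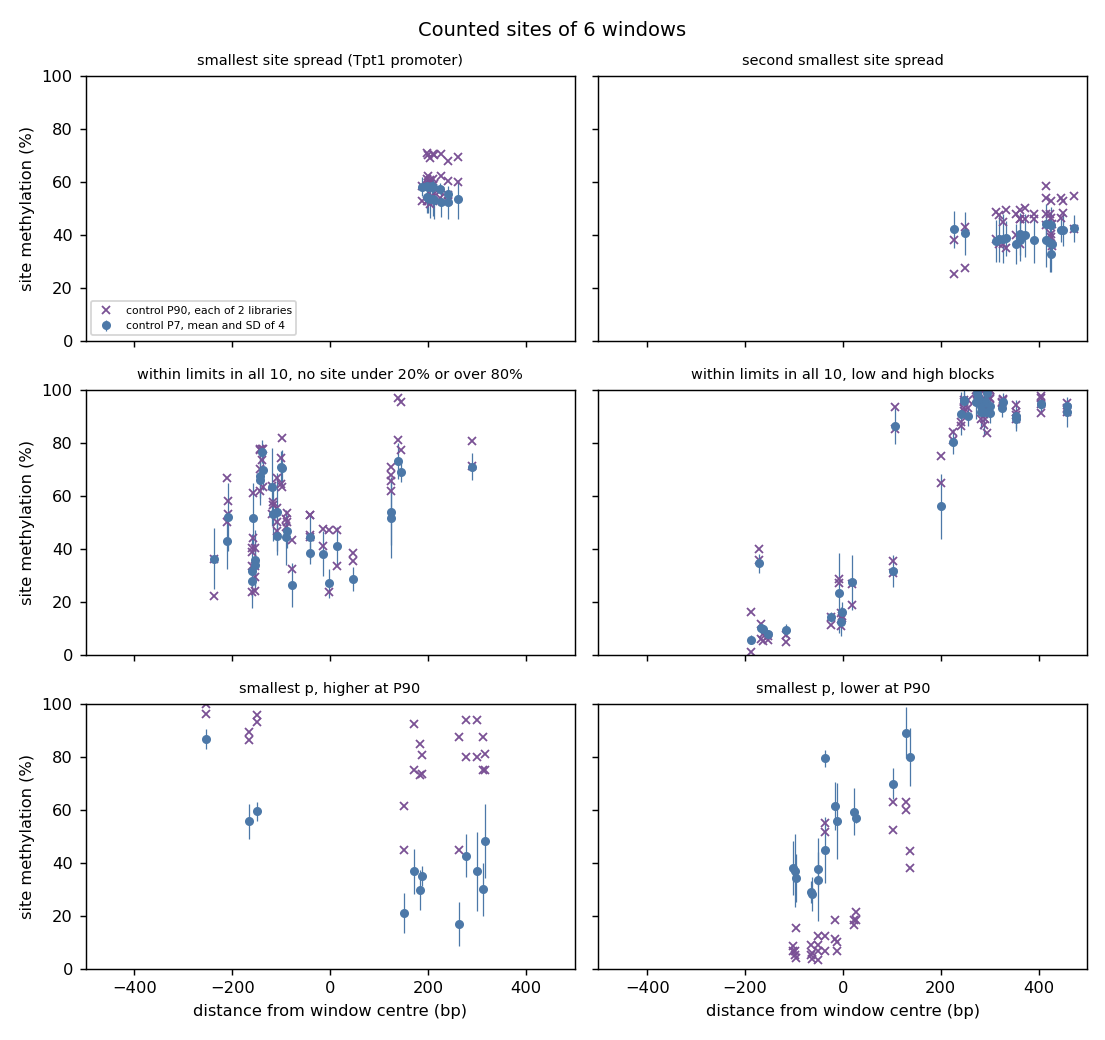
Methylation of each counted site by its distance from the window centre in 6 windows, with the mean and SD of 4 control P7 libraries (dots and bars) and each of 2 control P90 libraries (crosses). The Tpt1 window has its 16 sites between 52.2% and 58.5% in the control P7 mean. The window with low and high blocks has sites from 5.64% on its left to 99.0% on its right. The bottom panels show the windows with the smallest p in each direction for age.

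A level held at 40% to 60% in all 10 libraries, as in 336 windows, is one that imprinted regions would show. All counted sites were at 20% to 80% in 76 of them (22.6%) against 41.2% of the other 1913 windows, and low and high sites were mixed in 143 (42.6%) against 24.4%. The median SD between sites was 26.4 points against 18.6. Of the 110 with at least 10 counted sites, 28 had only intermediate sites (25.5%) and 49 were mixed (44.5%). In the 632 other windows with at least 10 counted sites these shares were 32.6% and 25.8%, so the gap in only-intermediate windows was smaller there. The choice itself bears on these contrasts, since staying within the limits in all 10 libraries favours a small spread between libraries. The median SD between control P7 libraries was 3.29 points in the 336 windows and 4.77 in the other 1913. Over the whole set it was 3.78 points in mixed windows and 5.25 in those with only intermediate sites. The choice therefore favours mixed windows, and the contrasts cannot be read as a trait of imprinted regions. None of the 110 had every site between 40% and 60%. Their P7 and P90 levels are close because the choice required it, so no age result is read from them.

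The largest of them by counted sites differ in kind. With 51 sites, chr9:7466001-7467000 stood at 53.0%, 48.3%, 53.5% and 51.4% in control P7 and 56.1% and 52.1% in control P90, and 47 of its sites were at 20% to 80%. All 32 counted sites of chr10:93580001-93581000 were intermediate, from 26.3% to 76.7%, and its libraries read 57.7%, 48.2%, 47.7% and 45.7% in control P7. The same was true of the 25 sites of chr7:117729001-117730000, at 21.5% to 72.9%. By contrast, chr7:713001-714000 had 8 sites under 20%, 5 in between and 26 at or above 80% at a level of 48.2%, 49.4%, 52.8% and 49.0%. A similar split of 6 low, 9 intermediate and 10 high sites gave chr9:19918001-19919000 its 47.5%, 44.9%, 45.5% and 50.0%. The remaining 3 of the 8 largest, chr11:68309001-68310000 with 35 sites, chr1:84139001-84140000 with 26 and chr12:45882001-45883000 with 26, had 33, 25 and 21 intermediate sites.

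Adjacent windows rarely shared the level. Of the 2249 windows 730 had a tested neighbour, 822 neighbours in all, of which 141 (17.2%) were at 40% to 60%, 88 (10.7%) under 20% and 254 (30.9%) at 80% or more. Over all tested windows 10.2% of neighbours were at 40% to 60%. There were 27 runs of 2 windows and 1 run of 4. The run of 4, chr11:86517001-86521000, ends at the Gp1bb promoter and averaged 55.4% ± 2.11, 51.4% ± 4.05, 52.5% ± 1.09 and 54.8% ± 5.07 from its first to its last window (SD, n = 4 control P7). All 12, 13 of 14, 12 of 14 and all 6 of their counted sites were at 20% to 80%. Runs of 2 include the 51-site window with chr9:7465001-7466000 (46.5% ± 7.26) and the pair chr1:84138001-84140000. The windows were spread over all 20 chromosomes, at 6.97% of the CpG-dense windows of chromosome 13 to 12.1% of those of chromosome 8.

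The level depends on which sites could be counted. The tables list no site whose reads were all unmethylated, so every level given, over counted or over listed sites, is biased upward by an amount that was not measured. Counted sites were only 23.6% of the sites listed in these windows. Of the listed sites 69.7% were missing from at least 1 library. When every listed site was used without a minimum, the control P7 median fell to 48.7%, and 512 windows (22.8%) were under 30% in the high-fat mean while 1387 (61.7%) stayed at 40% to 60%. The 512 had a median of 4 counted sites and 38 CpGs, 55.5% were mixed, and 123 of the 156 windows with a placed promoter were among them. The 1387 had a median of 9 counted sites and 22 CpGs, 48.6% had only intermediate sites and 17.3% were mixed. Of the 336 windows within the limits in all 10 libraries, 132 were among the 512.

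**Figure D3:**
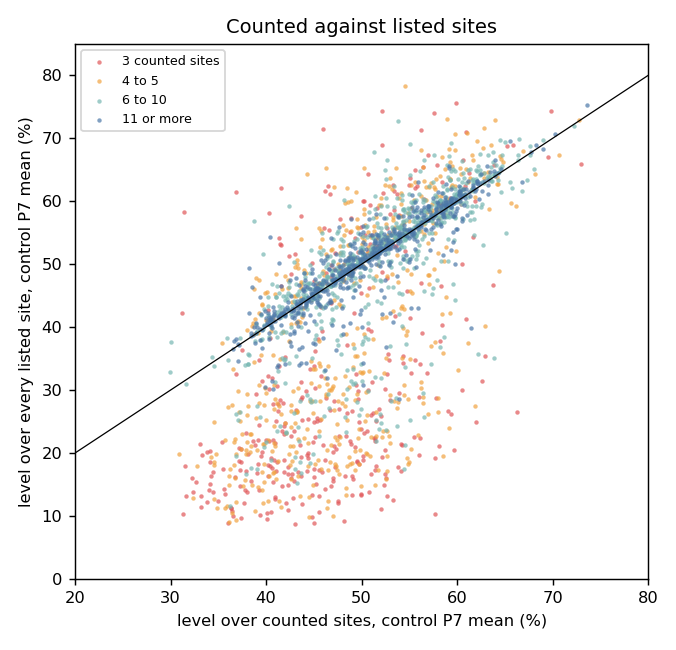
Level of each of the 2249 windows over counted sites (horizontal) and over every listed site (vertical), as the mean of 4 control P7 libraries, coloured by the number of counted sites. Windows with 11 or more counted sites follow the line of equal values, and a cloud of windows with 3 to 5 counted sites lies far under it.

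The 762 windows with 17 to 20 CpGs had only intermediate sites in 52.2% and mixed low and high sites in 15.2%. In the 164 windows with more than 50 CpGs the shares were 6.10% and 56.7%, with a median of 4 counted sites and 19.9% over every listed site. The 5 windows with the most CpGs show both kinds. With 117 CpGs, chr7:12851001-12852000 had 57 counted sites, 39 of them intermediate. With 104 CpGs, chr7:63045001-63046000 had only 4, of which 2 were under 20% and 2 at or above 80%, and it stood at 10.9% over its 136 listed sites. Of the remaining windows, chr12:13362001-13363000 had 44 of 46 sites intermediate and chr12:46718001-46719000 2 of 6. The last, chr7:12771001-12772000, owes its place to 1 library: the high-fat libraries read 75.4%, 68.9%, 68.3% and 26.5%, and control P7 read 68.5%, 71.7%, 74.9% and 79.2%.

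**Figure D4:**
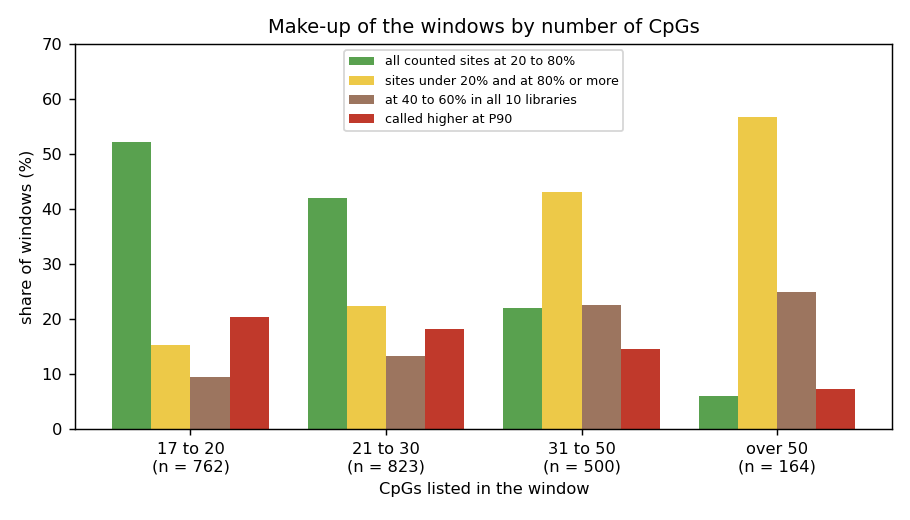
Share of windows (%) by the number of CpGs listed in the window, for windows whose counted sites are all at 20% to 80%, windows that mix sites under 20% with sites at 80% or more, windows within 40% to 60% in all 10 libraries, and windows called higher at P90. From the fewest to the most CpGs the first share falls from 52.2% to 6.10% and the second rises from 15.2% to 56.7%.

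In windows with a placed promoter, the promoter itself was mostly low. With 1 promoter taken per window, the level over all its listed sites had a median of 19.1% in control P7 over the 156 windows (from 1.45% to 69.8%), was below that of the window in 144, and lay at 40% to 60% in 14. In 52 windows no promoter site was counted, so the level of the window came from outside the promoter. The 156 windows are not typical of the set: 51.9% mixed low with high sites, against 25.2% of those without a placed promoter. Their median over every listed site was 22.7% in control P7, against 49.9%. Promoters were placed in 6.84% of CpG-dense windows at 20% to 40% and in 1.65% of those at 60% to 80%. The restriction sequence CCGG, searched in the printed strand (its other strand reads the same), occurs in 99.4% of the 175 promoters, 99.8% of all placed promoters and 46.2% of all promoters in the table, since placing needed listed CpGs. Of the 156 windows 38 were within the limits in all 10 libraries. These included windows at Creb1, a transcription factor of the cAMP pathway used in memory formation (chr9:71229001-71230000, 48.2% over counted sites and 8.71% ± 0.993 over the promoter), and Mgll, the lipase that degrades the endocannabinoid 2-arachidonoylglycerol (chr4:120671001-120672000, 48.8% and 18.97% ± 8.63). Both were named after their values were seen.

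Imprinted genes were looked up by a list of 34 genes with parent-specific methylation. Of these, 24 are in the promoter table and 6 could be placed: Igf2r, Igf2, Gnas, Sgce, Peg10 and Zdbf2. Only Gnas, the gene of the stimulatory G protein alpha subunit and a known imprinted locus, had a window of the set within 5 kb. This window, chr3:172376001-172377000, averaged 51.9% ± 3.73 in control P7 (SD, n = 4), 53.1% ± 7.20 in high-fat P7 and 54.2% ± 1.88 in control P90 (SD, n = 2), stayed within the limits in all 10 libraries, and 8 of its 9 sites were intermediate. The 2 windows before it had lower levels, 25.6% ± 9.34 and 35.9% ± 4.23 in control P7, with 13 of 13 and 33 of 34 sites intermediate. A further window of the set, chr3:172386001-172387000, lies 11.0 kb from the placed Gnas promoter and was named after its values were seen. It had 12 sites from 36.4% to 56.2% and averaged 40.8% ± 3.74 in control P7. The shared Peg10 and Sgce promoter window, chr4:29795001-29796000, had all 15 sites intermediate at 32.9% ± 2.50 in control P7 and 36.3% ± 8.56 in high-fat P7, so it fell outside the limits. Also within 5 kb, chr4:29792001-29793000 had all 5 sites intermediate but only 15 CpGs, under the density limit. It averaged 51.4% ± 11.8 in high-fat P7 and 61.5% ± 10.1 in control P7. In control P90 it averaged 81.2% ± 6.88 (adjusted p = 0.0153, limma-moderated logistic fit). The windows at the Igf2r promoter, each with 4 counted sites, averaged 69.5% ± 5.01 from 1 low and 3 high sites (chr1:48175001-48176000) and 29.5% ± 5.93 from 2 low, 1 intermediate and 1 high site (chr1:48176001-48177000). Near Igf2, chr1:215841001-215842000 averaged 26.5% ± 5.47 with 2 of 3 sites low. In chr1:215842001-215843000, with 7 of 8 sites intermediate, the level was 44.7% ± 3.67 in control P7 and 60.9% ± 1.20 in control P90 (adjusted p = 0.00856), but 34.9% ± 6.53 in high-fat P7, under the limit. No tested window lay near Zdbf2.

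Age was compared in control libraries that the level rule had not used, 2 at P90 against 4 at P7, with a logistic fit per window over all 86065 windows. Levels rose more often than they fell: 391 of the 2249 windows were higher at P90 (17.4%) and 112 lower (4.98%) at an adjusted p under 0.05, against 7.69% and 5.23% of all windows tested. The share that rose was above the background and the share that fell was near it. Among CpG-dense windows the shares were 9.69% and 5.71%. In CpG-sparse windows at the same level they were 17.7% and 4.91%. In CpG-dense windows at 20% to 40% they were 28.9% and 2.31%, and at 60% to 80% 8.28% and 9.55%. These shares were not tested against each other, and the number of counted sites was not matched between them. Its median was 7 here and in CpG-dense windows at 20% to 40% and 60% to 80%. Over all windows, and in the CpG-sparse ones, it was 4. Of the 2249 windows, those with 3 counted sites were called higher in 4.18%, with 4 to 5 in 10.7% and with 6 to 10 in 19.6%. With 11 to 20 counted sites the share was 28.0%, and with 21 or more 26.8%. The median difference was 2.99 points, against 0.518 over all windows, and 65.8% of the windows were higher at P90, against 55.9% of all windows.

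The count of calls rests on few libraries. Both P90 libraries were above all 4 P7 libraries in 699 windows (31.1%, 18.2% of all windows) and below in 228 (10.1%, 12.4% of all). Without control P90 replicate 1 the test called 260 higher and 69 lower, where 4.65% and 3.18% of all windows were called. Without replicate 2 it called 226 and 68, with 4.3% and 3.23% of all. edgeR called 339 and 84, with 6.68% and 4.14% of all, and a limma test on log2 ratios 206 and 37, with 4.58% and 2.19%. A site needed a methylated read in all 10 libraries to be counted, so a complete loss of methylation at P90 could not be seen.

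**Figure D5:**
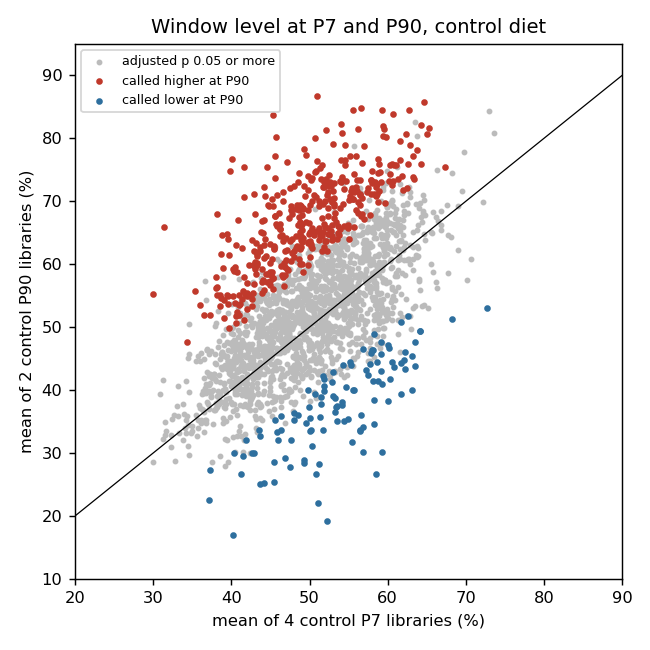
Mean level of each of the 2249 windows in 4 control P7 libraries (horizontal, %) and 2 control P90 libraries (vertical, %), with windows called higher (red) or lower (blue) at P90 and the line of equal levels. The 391 windows called higher moved from a median of 49.4% to 66.8%, and the 112 called lower from 53.8% to 37.7%.

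Windows that rose changed by a median of 16.2 points (8.06 to 38.4), and 311 of the 391 reached 60% or more at P90. Those that fell changed by a median of -15.6 points, the smallest fall being 9.33 and the largest 33.0, and 69 of 112 ended under 40%. By site, in windows called higher, sites that were at 20% to 80% in the high-fat P7 libraries rose by a median of 17.1 points in the controls (3587 sites, 95.01% of them higher), sites under 20% by 16.4 points (237 sites), and sites at 80% or more by 2.57 points (335 sites). In windows called lower, intermediate sites fell by 15.7 points in the median (1018 sites). Sites of 1 window share reads and libraries, so these counts carry no test. Windows with only intermediate sites were called higher in 20.4% and lower in 7.99%, mixed windows in 14.6% and 1.64%. By the level over every listed site, 23.4% of the 1387 windows at 40% to 60% rose and 2.15% of the 512 windows under 30% did. The medians of these groups were 9 and 4 counted sites. Since calls were fewer in windows with few counted sites, level and counted sites cannot be told apart here.

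The 6 windows with the smallest p among those that rose had P90 levels far above every control P7 library. In chr1:217795001-217796000 the control P7 libraries read 46.9%, 44.4%, 42.5% and 47.6%, and the P90 libraries 85.1% and 82.3%. All 12 counted sites were higher at P90, by 11.4 to 51.2 points (adjusted p = 2.11e-09). In chr20:8915001-8916000 the P7 libraries read 57.0%, 46.0%, 45.8% and 54.7% and the P90 libraries 87.7% and 85.7%. Its 8 sites were all higher (adjusted p = 6.19e-09). In chr6:943001-944000 the P7 values were 46.0%, 51.4%, 55.3% and 49.8% and the P90 values 81.9% and 78.3% (adjusted p = 1.05e-07). Each of its 9 sites was higher at P90, by at least 18.0 points.

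Of the remaining 3, chr15:62298001-62299000 read 61.5%, 51.5%, 54.9% and 58.4% at P7 and 84.7% and 85.1% at P90 (adjusted p = 1.18e-07). Its 9 sites included 3 already at or above 80% at P7. In chr5:171764001-171765000 the 16 sites lay within 161 bp and were even at P7, from 33.6% to 57.6%. This window read 52.8%, 53.5%, 49.7% and 47.6% at P7 and 78.8% and 73.9% at P90, and all 16 sites were higher (adjusted p = 1.27e-07). In chr18:80147001-80148000, with 5 sites, the P7 values were 43.4%, 37.9%, 38.4% and 40.6% and the P90 values 76.5% and 76.9% (adjusted p = 1.63e-07). Its high-fat P7 libraries, at 37.3%, 43.0%, 31.7% and 55.1%, stayed below the P90 controls as well.

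Among the windows that fell, chr19:57462001-57463000 read 48.0%, 49.4%, 59.4% and 52.1% in control P7 and 18.8% and 19.7% in control P90. Its 16 counted sites were all lower at P90, with a median of -30.1 points (adjusted p = 1.89e-09). In chr7:141072001-141073000 the P7 values were 55.7%, 47.4%, 47.8% and 53.6% and the P90 values 24.7% and 19.3%, and all 19 sites were lower (adjusted p = 7.89e-09). In chr16:7987001-7988000 the control P7 libraries were close together, at 56.7%, 56.7%, 58.9% and 61.7%, while the high-fat P7 libraries ranged from 47.8% to 71.8%. Its P90 values were 25.3% and 27.8% (adjusted p = 1.49e-06), below every control P7 library.

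The other lower windows were chr11:64645001-64646000, chr7:126567001-126568000 and chr3:5642001-5643000. Their control P7 means were 56.9% ± 2.41, 59.3% ± 5.68 and 49.3% ± 2.29 (SD, n = 4), and their P90 means 34.1% ± 2.32, 30.2% ± 1.78 and 28.9% ± 0.111 (SD, n = 2). In the first 2 every site was lower at P90, and in the last 20 of 21 were. All 12 named windows also passed with edgeR, with limma on log2 ratios (adjusted p up to 0.0115) and with each control library left out. The densest window of the set, chr7:12851001-12852000, was called too: it read 46.7%, 44.2%, 45.7% and 48.2% at P7 and 67.4% and 63.9% at P90, with 50 of 57 sites higher (adjusted p = 1.26e-05). The Rps10 window, at 41.5%, 36.0%, 35.3% and 39.6% against 62.3% and 48.0%, was called (adjusted p = 0.00165) but not without P90 replicate 1 (adjusted p = 0.226). Of the 156 windows with a placed promoter 1 rose (0.641%), that of Rps10, and 1 fell (0.641%), that of Sh3gl1, an endophilin of the endocytic pathway (43.6% to 33.7%, adjusted p = 0.0482), against 7.69% and 5.23% of all windows. The Sh3gl1 promoter, like that of Rps10, has no counted site, and windows with a placed promoter had a median of 4 counted sites against 7 in those without.

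Diet at P7 is given as a description, since the high-fat level chose the windows. The high-fat mean minus the control mean ran from -16.1 to 18.7 points, with a median of -0.0956 and quartiles of -2.59 and 2.69. The high-fat mean was the higher in 1102 windows (49.0%), and the means were at least 10 points apart in 69 (3.07%, against 0.794% of all windows). In chr7:12771001-12772000, the window with 1 low high-fat library, the group means were 59.8% ± 22.4 and 73.6% ± 4.59 (SD, n = 4 each).

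In the 6 libraries with a lane name only 326 to 1191 of the 2249 windows had at least 3 sites with 10 reads. Their median level was 71.5% and 83.8% in control P90 replicates 3 and 4, and 88.2%, 99.0%, 98.1% and 95.3% in high-fat P90 replicates 1 to 4. Only 7.36% to 18.1% of these windows were at 40% to 60% there, and 20.4% to 56.6% were at 95% or more. These libraries held 7802161 to 21333037 reads, again summed over sites, at 214222 to 752866 listed sites. They stand apart from all 10 libraries used, so no high-fat P90 level is given for single windows.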

How the data were processed

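Per the labels' protocols, DNA was made into libraries with the NuGEN Ovation RRBS kit. The tables deposited by the authors hold methylated and unmethylated read counts per cytosine, without normalization. Positions are in Rnor_6.0, a build named in the submitters' processing notes; for the aligner and caller, versions are not given here. Counts were summed per window as described, with 10 reads as the minimum per site. Age was tested with a logistic model (deviance F test, two-sided), Pearson dispersion moderated over windows with limma 3.58.1 (robust, trend in coverage and level, at least 1) and Benjamini-Hochberg adjustment over 86065 windows. The window's own spread has 4 degrees of freedom and the shared one 34.9. The test was run on simulated counts, but their spread was drawn from the same fit. That run therefore cannot show how well the fitted spread describes these libraries. Members, lists and tests were chosen with earlier results of these data known. Windows named in the text are, for age, 6 per direction by smallest p, the 8 with most sites among those within the limits in all 10 libraries, the longest runs, the 5 with most CpGs, those next to each limit, and the 4 evenest and 4 most uneven with at least 10 sites. No genome of the build was used; promoters were placed, by a method chosen after the data were seen, where the spacing of at least 10 CpGs matched listed positions at 1 place with at most 10% of listed CpGs unmatched. Of 33469 promoters 3472 were placed once and 3428 of these (98.7%) on the chromosome that RefSeq names, which the match had not used; only the latter were kept. Alternatives were edgeR 4.0.16, limma on log2 ratios with 1 added, other minimums, merged strands, X windows, a replicate block and single libraries left out. Python 3.11.15 and R 4.3.3 were used.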

Additional observations from a re-analysis of the deposited data

Results flagged for a closer look

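In 102 groups of 4 P7 libraries at the named windows, 6 had a library that stood apart from the other 3, by Dixon's 95% limit on its gap to the nearest library; chance flags about 1 in 20 groups. The high-fat P7 library was the lowest at 41.9% in chr5:171764001-171765000 (replicate 3), 26.5% in chr7:12771001-12772000 (replicate 4), 37.8% in chr19:51737001-51738000 (replicate 3) and 30.2% in chr10:15154001-15155000 (replicate 3). The next values there were 51.0%, 68.3%, 65.1% and 47.4%. High-fat P7 replicate 2 was the highest, at 70.8%, in chr1:7882001-7883000, where the next was 57.3%. Control P7 replicate 2 was the lowest, at 50.4%, in chr12:45882001-45883000, where the next was 56.2%. High-fat replicate 3 accounts for 3 of the 6, and it had the lowest median of its group over all the windows (46.7%).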

How the results depend on the processing

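The number of windows was 2249; a minimum of 20 reads left 1397, and leaving out each high-fat P7 library gave 2213 to 2290. Every listed site without a minimum, an alternative added after seeing the data, gave 1673 windows, 1387 of them shared. The 336 windows within the limits in all 10 libraries became 188 with 20 reads, 223 with at least 5 sites and 211 with every listed site. The 935 in all 4 control P7 libraries became 594 with 20 reads, and the share of sites at 20% to 80% became 85.8%, against 81.4%. For age, 503 windows were called (391 higher, 112 lower). limma on log2 ratios gave 243 (206 and 37) and edgeR 423 (339 and 84), of which 240 and 421 were among the 503. Leaving out each control library gave 294 to 484 (226 to 397 higher, 68 to 123 lower), while 7.53% to 12.0% of all windows were called; where 1 P90 library was left, it was assumed to vary like the P7 libraries. The replicate block by title number, which 2 P90 and 2 P7 libraries share, gave 256 (208 higher, 48 lower), where 4.21% of all windows were higher and 2.8% lower. Deviations of same-numbered libraries had r = -0.0227 and -0.0466. With 2 P90 libraries, the values for unlike numbers mirror these (0.0227 and 0.0466). They cannot decide whether the numbers pair the libraries, and the main fit used no pairing. Fewer reads or sites also mean fewer windows tested; for the other changes the cause was not tested. At the named windows 788 values under alternatives kept their call, 9 lost it, 6 gained it and none that passed reversed. Windows with few reads limit what can be seen, since counting error alone is at least 3.26 points in the median window.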
